A study of Mus musculus with 12 samples.

Results

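Chemokines are small secreted proteins that guide cell migration, and the genes described here are the mouse chemokines and their receptors: every gene whose symbol begins with Ccl, Cxcl, Ccr or Cxcr and a number, together with Cx3cl1, Cx3cr1, Xcl1 and Xcr1. The rule found 54 genes, 36 ligands and 18 receptors, among the 19057 genes that carry 1 symbol, on 79 of 45281 probes. Where a gene had several probes, the values are those of the one that was brightest on average over the 12 arrays.

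Single-color Illumina bead arrays recorded the RNA of 12 samples, each on its own array. There were 4 medulloblastomas (MBs) of genotype NdpKO;Ptch+/-, 4 Ptch+/- MBs and, of wild-type (WT) granule neuron progenitors (GNPs), 4 samples. NdpKO;Ptch+/- mice lack Norrin, a secreted ligand of the Frizzled4 receptor, because the X-linked Ndp gene carries a cassette with lacZ, and they are heterozygous for a loss of Patched, which restrains Hedgehog signalling. X linkage restricts this genotype to males, and the records give a mixed strain background for it. Ptch+/- MBs carry the Patched mutation with Ndp intact, and WT GNPs carry neither mutation. The records name C57Bl/6 for both of these groups, so by the records Ndp genotype and strain cannot be told apart. The methods, however, describe controls bred in the cohort of the mutants. They also state that controls included both sexes, and the part of sex was not tested. Tumor age was not given in the sources used here. The GNPs came from cerebella at postnatal day 6 and were purified on a percoll gradient with pre-plating, whereas tumor RNA was that of dissected tissue with all its cell types. In such bulk RNA, fewer cells of a type and less RNA per cell cannot be told apart. The records do not say that each sample came from a separate mouse, and p-values cover only the variation among the samples at hand.

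A chemokine binds a G protein-coupled receptor on the cell that it attracts, and most receptors of the family sit on leukocytes. CC ligands of the monocyte group recruit monocytes and eosinophils, CXC ligands of the Cxcl1 group recruit neutrophils, and many of both groups are switched on by inflammatory signals through NF-kappaB. In the developing cerebellum, Cxcl12 from the meninges holds granule neuron progenitors at the surface through Cxcr4. In the brain, Cx3cr1 marks microglia and responds to Cx3cl1, which neurons carry on their surface.

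All values are normalized log2 signals, so a difference of 1 is a 2-fold change. Unexpressed genes sit on a floor slightly above 4 on this scale, and 4.5 was taken as the background limit. The Ndp probe lay under that limit on all 12 arrays, at means of 4.14 in NdpKO;Ptch+/- MBs, 4.17 in Ptch+/- MBs and 4.16 in WT GNPs, so it gave no check of the genotype. Of the 17 markers of microglia and macrophages, 3 (Itgam, Ptprc and Tmem119) were under the limit on every array, as were all 11 lymphocyte markers. Of 13 markers of GNPs and Hedgehog-driven MB, Atoh1, Gli1 and Mycn were likewise under it, while the other 10, Zic1 and Barhl1 among them, reached it in every group.

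Most of the family was not detectable in these samples. At least 1 array reached the limit for 18 of the 54 genes, or 33.3%, against 50.6% of all genes. Ligands made up 16 of these, and the only receptors were Cxcr4 and Cx3cr1, 2 of 18. On all 12 arrays, 5 genes reached the limit: Ccl25, Ccl27a, Cxcl12, Cxcr4 and Cx3cr1. Ccl9, Ccl19 and Cxcl10 did so on 1 array each, and the other 36 on none, with their highest values between 4.12 and 4.41. By group, 11 genes reached the limit on some NdpKO;Ptch+/- MB array, 16 on some Ptch+/- MB array and 13 on some WT GNP array. Per array the number was 7 to 10 in NdpKO;Ptch+/- MBs, 10 to 16 in Ptch+/- MBs and 9 to 11 in WT GNPs, and the 16 belonged to Ptch+/- MB replicate 4.

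**Figure D1:**
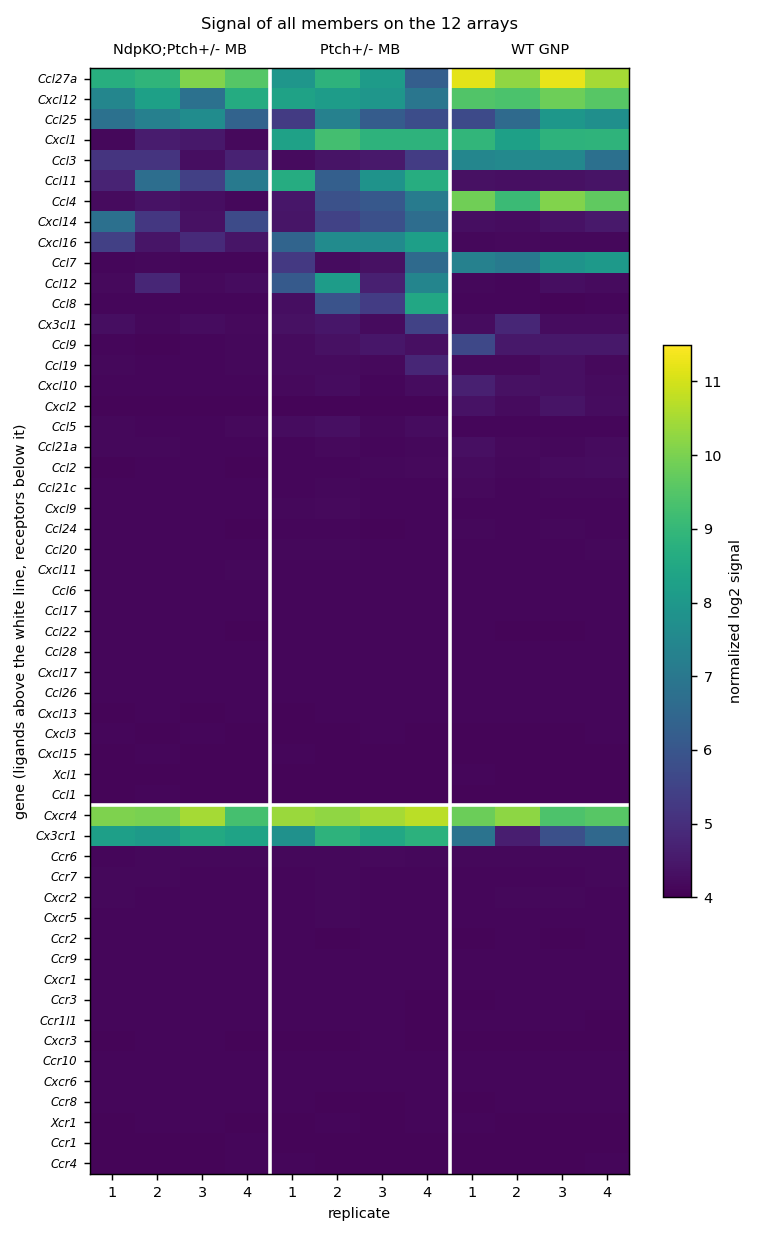
Normalized log2 signal (color) of all 54 genes (rows, ligands above the white line and receptors below it) on the 12 arrays (columns, replicates 1 to 4 of each group). Of the receptors only Cxcr4 and Cx3cr1 leave the floor, and 36 genes lie under the limit of 4.5 on every array.

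Among receptors that the naming rule covers, most of those for the ligands that varied were under the limit throughout. Cxcr2 (the receptor of Cxcl1 and Cxcl2), Cxcr6 (of Cxcl16), Ccr2 (of Ccl2, Ccl7 and Ccl12), Ccr1 (of Ccl3), Ccr3 (of Ccl11), Ccr8 (of Ccl8), Ccr9 (of Ccl25) and Ccr10 (of Ccl27a) had no array at 4.5. All 16 receptors without an array at the limit ranged between 4.10 and 4.18. Ackr1, an atypical chemokine receptor that the rule leaves out, was bright in every group. Its mean was 10.14 in NdpKO;Ptch+/- MBs, 10.25 in Ptch+/- MBs and 10.63 in WT GNPs.

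NdpKO;Ptch+/- MBs had nearly no Cxcl1 signal, and less Cxcl16 signal than Ptch+/- MBs. In NdpKO;Ptch+/- MBs Cxcl1 was at the background limit, whereas in Ptch+/- MBs it was as bright as in WT GNPs. Cxcl16 was absent from the detectable genes of WT GNPs, reached its highest values in Ptch+/- MBs and lay close to background in NdpKO;Ptch+/- MBs. Between these tumor genotypes 2 of the 54 genes (3.7%) were called at an adjusted p under 0.05, 0 higher and 2 lower, and 9 had an unadjusted p under 0.05. Of all genes 2.07% were called in this comparison, 0.808% higher and 1.26% lower. The median log2 fold change was -0.0034 over the 54 genes and 0.0007 over all genes.

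Cxcl1 encodes a chemoattractant of neutrophils. Its log2 signal was 4.17, 4.57, 4.496 and 4.18 in the NdpKO;Ptch+/- MBs, against 8.29, 9.27, 8.84 and 8.86 in the Ptch+/- MBs. In WT GNPs it was 8.93, 8.26, 8.86 and 8.87. All 4 NdpKO;Ptch+/- MBs were far below every other sample, with 1 of them above the limit, and the Ptch+/- MBs and WT GNPs overlapped. The mean was 4.35 ± 0.21 (SD, n = 4) in NdpKO;Ptch+/- MBs and 8.81 ± 0.40 in Ptch+/- MBs. The log2 fold change between them was -4.46 (standard error 0.22, 95% interval -4.95 to -3.97, adjusted p = 4.69e-05 in limma), measured against NdpKO;Ptch+/- MBs of which 3 of 4 were under the limit. An exact permutation test over the 8 tumors gave a two-sided p of 0.0286, the smallest that 4 against 4 allows. Among the 19057 genes, Cxcl1 ranked 3 by p. Its difference from WT GNPs was -4.38 in NdpKO;Ptch+/- MBs (adjusted p = 1.60e-06 in limma) and 0.09 in Ptch+/- MBs (95% interval -0.40 to 0.57, adjusted p = 0.850). The gene had 1 probe.

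Cxcl16 is made as a membrane-bound chemokine that is shed from the cell surface, and it also acts as a scavenger receptor on macrophages. Its log2 signal was 5.42, 4.43, 4.88 and 4.42 in NdpKO;Ptch+/- MBs, against 6.41, 7.63, 7.59 and 8.24 in Ptch+/- MBs. In WT GNPs it stayed between 4.15 and 4.18. The lowest Ptch+/- MB was above the highest NdpKO;Ptch+/- MB, and 2 of 4 NdpKO;Ptch+/- MBs reached the limit. The log2 fold change was -2.68 (standard error 0.36, 95% interval -3.48 to -1.88, adjusted p = 0.00931 in limma), and the exact two-sided permutation p was 0.0286. Against WT GNPs, Ptch+/- MBs were at least 7.82-fold higher (adjusted p = 0.000218 in limma), and NdpKO;Ptch+/- MBs differed by a fitted 0.63 (adjusted p = 0.322). The other probe of Cxcl16 was under the limit on all 12 arrays. With the replicate number as a block the adjusted p for the tumor genotypes was 0.0600, and with the tumors fitted alone it was 0.101.

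**Figure D2:**
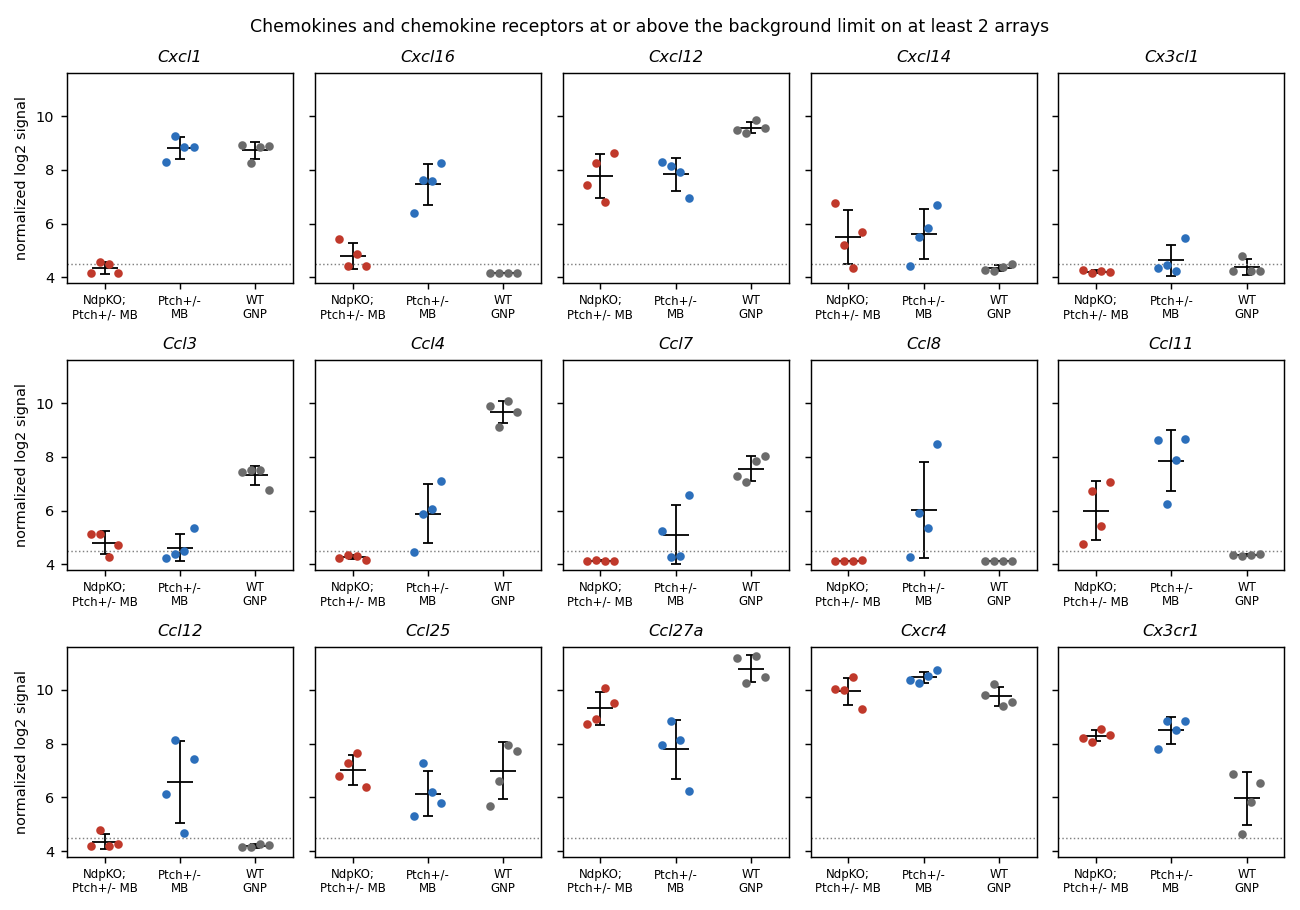
Normalized log2 signal (y axis) of the 15 genes at or above the background limit of 4.5 (dotted line) on at least 2 arrays, in NdpKO;Ptch+/- MBs, Ptch+/- MBs and WT GNPs (x axis); points are arrays, and bars are the mean ± SD (n = 4). Cxcl1 lies between 4.17 and 4.57 in NdpKO;Ptch+/- MBs and above 8 in every other sample, and Ccl8 and Ccl12 are high in some Ptch+/- MBs only.

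Cxcl1 lies on chromosome 5 in a cluster with Cxcl2, Cxcl3 and Cxcl15. Cxcl2 and Cxcl3 are close relatives of Cxcl1 that share its receptor, and their promoters are shown because Cxcl1 alone of these named genes was detectable. The sequences are from RefSeq on GRCm38.p6, from 120 bases before each transcription start through the first 10 transcribed bases, all on the plus strand, with a match to the NF-kappaB motif in capitals. Cxcl1 is shown from chr5:90891125-90891254, Cxcl2 from chr5:90903779-90903908 and Cxcl3 from chr5:90785981-90786110.
Cxcl1: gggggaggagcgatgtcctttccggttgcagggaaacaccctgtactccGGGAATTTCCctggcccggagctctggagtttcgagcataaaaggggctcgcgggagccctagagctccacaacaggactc
Cxcl2: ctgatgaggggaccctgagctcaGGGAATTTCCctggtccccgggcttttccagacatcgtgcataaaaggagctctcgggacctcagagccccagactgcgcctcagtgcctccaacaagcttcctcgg
Cxcl3: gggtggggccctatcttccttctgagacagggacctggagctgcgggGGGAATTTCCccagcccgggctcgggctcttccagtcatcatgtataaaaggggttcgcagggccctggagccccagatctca
The match has the same 10 letters in all 3 promoters and begins 71 bases before the start of Cxcl1, 97 before that of Cxcl2 and 73 before that of Cxcl3. On both strands of the full promoter windows of RefSeq (250 bases before to 50 after the start), the NF-kappaB motif was found in 10 of the 40 family members that had an entry (25%) and in 5.8% of 32851 promoters. The AP-1 motif (TGANTCA) was found in 8 of 40 (20.0%) and in 7.81% of all, and the C/EBP motif (TTGCNNAA) in 3 of 40 (7.5%) and in 10.8% of all. Members were counted by gene, and all promoters by entry. Of the 10 members with the NF-kappaB motif, only Cxcl1 and Ccl27a reached the limit on at least 2 arrays. A match describes letters only. The same NF-kappaB letters stand in all 3 promoters, and whether the motif is used in these samples was not tested. Cxcl2 and Cxcl3 were under the limit on all 12 arrays, as was Cxcl15. Cxcl2 was nonetheless called lower than WT GNPs in both tumor genotypes, with a log2 fold change of -0.21 each (adjusted p = 0.00395 in NdpKO;Ptch+/- MBs and 0.00323 in Ptch+/- MBs in limma), on values from 4.10 to 4.11 in the tumors and from 4.22 to 4.41 in WT GNPs, all of which are under the limit.

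Ccl12 and Ccl8 were variable among Ptch+/- MBs, with Ccl8 under the limit in all NdpKO;Ptch+/- MBs and Ccl12 in 3 of 4, and neither passed the test between the tumor genotypes. Ccl12, a mouse monocyte chemoattractant, had log2 signals of 4.20, 4.79, 4.20 and 4.25 in NdpKO;Ptch+/- MBs, against 6.11, 8.15, 4.67 and 7.41 in Ptch+/- MBs. It was between 4.14 and 4.27 in WT GNPs. The tumor genotypes overlapped through Ptch+/- MB replicate 3, and all Ptch+/- MBs were above the limit. The log2 fold change was -2.23 (standard error 0.62, adjusted p = 0.137 in limma, exact two-sided permutation p = 0.0571). Without Ptch+/- MB replicate 3 it was -2.87 (adjusted p = 0.0212), and where dim probes were left out of the adjustment the adjusted p was 0.0369. Another probe of Ccl12 reached the limit in Ptch+/- MB replicates 2 and 4 only, at 6.98 and 6.44.

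Ccl8, a relative of Ccl12 that in the mouse acts through Ccr8, was between 4.12 and 4.14 in NdpKO;Ptch+/- MBs, against 4.29, 5.91, 5.34 and 8.48 in Ptch+/- MBs. WT GNPs were at 4.12 to 4.13. The genotypes did not overlap, and Ptch+/- MBs were at least 2.84-fold higher on average, yet their spread was wide (SD 1.78) and the adjusted p was 0.279 in limma (exact two-sided permutation p = 0.0286). Ptch+/- MB replicate 4 set the size of this difference, which was -1.88 on the log2 scale with it and -1.05 without it. Against WT GNPs the adjusted p of Ptch+/- MBs was 0.104, and it was 0.0296 without their replicate 1 and 0.0463 without their replicate 4.

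Ccl11, or eotaxin, which attracts eosinophils and is also made by fibroblasts, was detected in all 8 tumors and in no WT GNP sample. Its log2 signal was 4.75, 6.72, 5.42 and 7.08 in NdpKO;Ptch+/- MBs, against 8.64, 6.26, 7.86 and 8.66 in Ptch+/- MBs. The genotypes overlapped through Ptch+/- MB replicate 2, and the log2 fold change was -1.87 (standard error 0.62, adjusted p = 0.216 in limma). WT GNPs lay between 4.31 and 4.40. Ptch+/- MBs were at least 10.2-fold higher than WT GNPs (adjusted p = 0.00387 in limma), and NdpKO;Ptch+/- MBs at least 2.81-fold (adjusted p = 0.129). The other probe of Ccl11 was under the limit on all arrays.

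Ccl3, Ccl4 and Ccl7 were brightest in WT GNPs. Ccl3 and Ccl4 are inflammatory ligands that microglia and macrophages release, and Ccl7 attracts monocytes. Ccl4 was 4.23, 4.36, 4.29 and 4.17 in NdpKO;Ptch+/- MBs, 4.44, 5.87, 6.07 and 7.12 in Ptch+/- MBs, and 9.88, 9.11, 10.07 and 9.66 in WT GNPs. The 3 groups did not overlap. The log2 fold change between the tumor genotypes was -1.61 (standard error 0.47, adjusted p = 0.155 in limma, exact two-sided permutation p = 0.0286), and the adjusted p was 0.0220 without Ptch+/- MB replicate 1 and 0.0448 with dim probes left out. Against WT GNPs, NdpKO;Ptch+/- MBs were at least 36.2-fold lower (adjusted p = 7.36e-05) and Ptch+/- MBs a fitted 14-fold lower (adjusted p = 0.000467). Another probe of Ccl4 was under the limit in all tumors and reached it in 3 of 4 WT GNP samples, with values from 4.26 to 6.34.

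Ccl3 was 5.14, 5.12, 4.27 and 4.70 in NdpKO;Ptch+/- MBs and 4.23, 4.38, 4.51 and 5.34 in Ptch+/- MBs, against 7.43, 7.52, 7.503 and 6.78 in WT GNPs. The tumor genotypes overlapped (log2 fold change 0.19, 95% interval -0.46 to 0.85, adjusted p = 0.867 in limma), and every WT GNP sample was above every tumor. From WT GNPs it differed by -2.50 on the log2 scale in NdpKO;Ptch+/- MBs (adjusted p = 0.000488) and -2.69 in Ptch+/- MBs (adjusted p = 0.000218).

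Ccl7 was between 4.12 and 4.17 in NdpKO;Ptch+/- MBs and 5.24, 4.26, 4.33 and 6.60 in Ptch+/- MBs, against 7.30, 7.05, 7.84 and 8.05 in WT GNPs. The tumor genotypes did not overlap, but 2 of the 4 Ptch+/- MBs were under the limit as well. Their log2 fold change was -0.97 (adjusted p = 0.428 in limma), and it was -0.47 without Ptch+/- MB replicate 4. NdpKO;Ptch+/- MBs were at least 8.35-fold lower than WT GNPs (adjusted p = 0.00121), and Ptch+/- MBs a fitted 5.48-fold lower (adjusted p = 0.00583). Another probe of Ccl7 gave the same calls, with log2 fold changes from WT GNPs of -2.83 and -1.72.

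**Figure D3:**
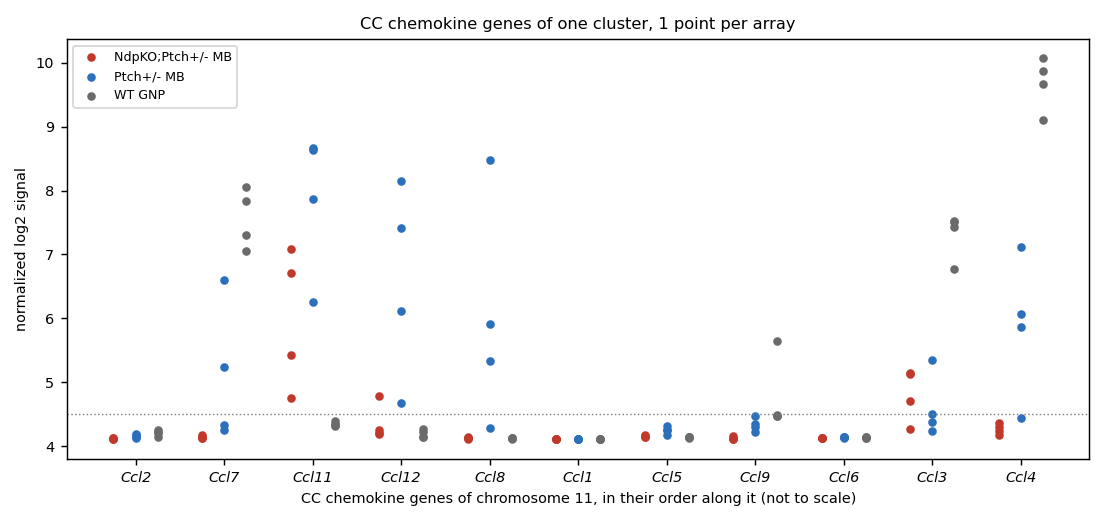
Normalized log2 signal (y axis) of the CC chemokine genes of chromosome 11 in their order along the chromosome (x axis, spacing not to scale), 1 point per array, with the background limit of 4.5 as a dotted line. Ccl11, Ccl12 and Ccl8 lie under the limit in WT GNPs and leave the floor in Ptch+/- MBs, as Ccl11 also does in NdpKO;Ptch+/- MBs. The adjoining Ccl7, and Ccl3 and Ccl4 at the far end, are highest in WT GNPs.

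These genes lie together on chromosome 11 in the order Ccl2, Ccl7, Ccl11, Ccl12, Ccl8, Ccl1, Ccl5, Ccl9, Ccl6, Ccl3 and Ccl4. Ccl7 was brightest in WT GNPs, the adjoining Ccl11, Ccl12 and Ccl8 were under the limit there and highest on average in Ptch+/- MBs, and Ccl3 and Ccl4 at the far end were again brightest in WT GNPs. Ccl2, Ccl1, Ccl5 and Ccl6 were under the limit on all arrays. Of these, Ccl2 was called lower in NdpKO;Ptch+/- MBs than in WT GNPs (4.12 on each of the 4 arrays, against 4.15 to 4.25, adjusted p = 0.0226 in limma, and 0.0504 to 0.0601 without any one of 6 of these 8 arrays) and Ccl5, a T cell attractant, higher in Ptch+/- MBs than in WT GNPs (4.17 to 4.32, against 4.12 to 4.14, adjusted p = 0.0151, and 0.0537 with these 8 arrays fitted alone). No fold is given for either, since both groups were under the limit.

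The ligands that were present in every sample did not pass the test between the tumor genotypes. Cxcl12, the meningeal attractant of GNPs, was 7.45, 8.27, 6.80 and 8.62 in NdpKO;Ptch+/- MBs and 8.31, 8.14, 7.94 and 6.94 in Ptch+/- MBs, against 9.47, 9.37, 9.85 and 9.56 in WT GNPs. The tumor genotypes overlapped (log2 fold change -0.05, 95% interval -0.97 to 0.88, adjusted p = 0.988 in limma), and all tumors were below all WT GNP samples. Against WT GNPs the log2 fold change was -1.78 in NdpKO;Ptch+/- MBs (adjusted p = 0.0198) and -1.73 in Ptch+/- MBs (adjusted p = 0.0174). The other 2 bright probes of Cxcl12 gave -2.61 and -2.07 in NdpKO;Ptch+/- MBs and -2.04 and -1.98 in Ptch+/- MBs, and its remaining 2 probes were under the limit on all arrays. The call in NdpKO;Ptch+/- MBs was lost without their replicate 1 (adjusted p = 0.0602), without WT GNP replicate 3 (adjusted p = 0.0555) and with the replicate block (adjusted p = 0.0689), which also ended the call in Ptch+/- MBs (adjusted p = 0.0595).

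Cxcr4, the receptor of Cxcl12 on GNPs, was bright on every array. Its log2 signal was 10.04, 9.99, 10.48 and 9.28 in NdpKO;Ptch+/- MBs and 10.37, 10.26, 10.50 and 10.73 in Ptch+/- MBs, against 9.82, 10.23, 9.42 and 9.56 in WT GNPs. The 4 Ptch+/- MBs were above the 4 WT GNP samples, but the log2 fold change of 0.71 had an adjusted p of 0.0903 in limma, and of 0.0380 without NdpKO;Ptch+/- MB replicate 4. NdpKO;Ptch+/- MBs overlapped with both other groups, with log2 fold changes of -0.52 from Ptch+/- MBs (95% interval -1.09 to 0.05, adjusted p = 0.436) and 0.19 from WT GNPs (adjusted p = 0.712). The receptor passed the test in no comparison between groups under this fit.

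Ccl27a, a skin chemokine that acts through Ccr10, was 8.72, 8.92, 10.09 and 9.52 in NdpKO;Ptch+/- MBs and 7.95, 8.84, 8.13 and 6.25 in Ptch+/- MBs, against 11.18, 10.26, 11.25 and 10.48 in WT GNPs. WT GNPs were above all tumors. Between the tumor genotypes its log2 fold change was 1.52 (95% interval 0.32 to 2.72, adjusted p = 0.246 in limma), and 1.00 without Ptch+/- MB replicate 4. From WT GNPs it was -1.48 in NdpKO;Ptch+/- MBs (adjusted p = 0.113) and -3.00 in Ptch+/- MBs (adjusted p = 0.00408). The other probe, which is dimmer, was called lower than WT GNPs in NdpKO;Ptch+/- MBs as well (log2 fold change -2.48, adjusted p = 0.00703), and the brighter probe had an adjusted p of 0.0312 there without Ptch+/- MB replicate 4. Ccl27a overlaps the gene Il11ra1 and has near-identical copies on chromosome 4, so its values may include signal from these genes.

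Ccl25, a thymic chemokine, was 6.81, 7.27, 7.65 and 6.37 in NdpKO;Ptch+/- MBs, 5.32, 7.28, 6.19 and 5.78 in Ptch+/- MBs, and 5.70, 6.61, 7.96 and 7.75 in WT GNPs. All 3 groups overlapped on this probe, and no comparison passed on it or on the other 2 (adjusted p = 0.597 between the tumor genotypes in limma). On 1 of the other probes, Ptch+/- MBs overlapped with neither group (log2 fold change 0.81 between the tumor genotypes, adjusted p = 0.191). With the mean of its probes, Ccl25 was called lower in Ptch+/- MBs than in WT GNPs (log2 fold change -0.68, adjusted p = 0.0336). Cxcl14, which attracts myeloid cells, was 6.77, 5.21, 4.35 and 5.71 in NdpKO;Ptch+/- MBs and 4.43, 5.49, 5.82 and 6.69 in Ptch+/- MBs, against 4.26 to 4.51 in WT GNPs. The tumor genotypes spanned nearly the same range (log2 fold change -0.10, 95% interval -1.32 to 1.12, adjusted p = 0.976), and neither passed the test against WT GNPs. Cx3cl1 reached the limit in Ptch+/- MB replicate 4, at 5.48, and in WT GNP replicate 2, at 4.81, and nowhere else.

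Cx3cr1, the fractalkine receptor of microglia, was the only gene of the family called higher in NdpKO;Ptch+/- MBs than in WT GNPs. It was 8.23, 8.07, 8.56 and 8.34 in NdpKO;Ptch+/- MBs and 7.79, 8.84, 8.51 and 8.83 in Ptch+/- MBs, against 6.86, 4.64, 5.83 and 6.54 in WT GNPs. Every tumor was above every WT GNP sample, and the tumor genotypes overlapped. The log2 fold change from WT GNPs was 2.33 in NdpKO;Ptch+/- MBs (adjusted p = 0.00739 in limma) and 2.52 in Ptch+/- MBs (adjusted p = 0.00369), a fitted 5.03-fold and 5.75-fold. Between the tumor genotypes it was -0.19 (95% interval -1.18 to 0.80, adjusted p = 0.926).

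Markers of microglia and macrophages moved with Cx3cr1. Of the 17 measured, 9 were called higher and 1 (Cd14) lower than in WT GNPs in each tumor genotype, with a median log2 fold change of 1.03 in NdpKO;Ptch+/- MBs and 1.80 in Ptch+/- MBs. Aif1, a calcium-binding protein of microglia, was 8.97 ± 0.25 (SD, n = 4) in NdpKO;Ptch+/- MBs and 9.31 ± 0.60 in Ptch+/- MBs, against 4.66 ± 0.28 in WT GNPs. The log2 of the summed signal of the list ranged over 12.8 to 13.5 in NdpKO;Ptch+/- MBs, 13.1 to 14.1 in Ptch+/- MBs and 11.1 to 11.7 in WT GNPs. Between the tumor genotypes 0 of the 17 were called, with a median of -0.28. Their part in the differences of Cx3cr1, Cxcl16 and the CC ligands was not tested, and Ccl3 and Ccl4 were highest in WT GNPs, where these markers were lowest.

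Taking both comparisons with WT GNPs, the family was not called more often than genes at large. In NdpKO;Ptch+/- MBs 8 of the 54 genes (14.8%) were called, 1 higher and 7 lower, and of all genes 15.7% were called, 7.69% higher and 7.98% lower. In Ptch+/- MBs 11 of the 54 (20.4%) were called, 5 higher and 6 lower, and of all genes 21.2% were called, 10.3% higher and 10.9% lower. The higher genes in Ptch+/- MBs were Cxcl16, Cx3cr1, Ccl11, Ccl12 and Ccl5, and the lower ones were Ccl3, Ccl4, Ccl7, Cxcl2, Cxcl12 and Ccl27a. In NdpKO;Ptch+/- MBs the lower ones were Cxcl1, Ccl4, Ccl3, Ccl7, Cxcl2, Cxcl12 and Ccl2. Both comparisons share the WT GNP arrays. Each count includes 2 genes that were under the limit on all 12 arrays: Cxcl2 and Ccl2 in NdpKO;Ptch+/- MBs, and Cxcl2 and Ccl5 in Ptch+/- MBs. The rise of Ccl12 in Ptch+/- MBs (at least 4.25-fold, adjusted p = 0.0253 in limma) was lost without their replicate 4 (adjusted p = 0.0617) and without any one of the 4 WT GNP arrays (adjusted p 0.0544 to 0.0595), and with these 8 arrays fitted alone it was 0.0784.

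**Figure D4:**
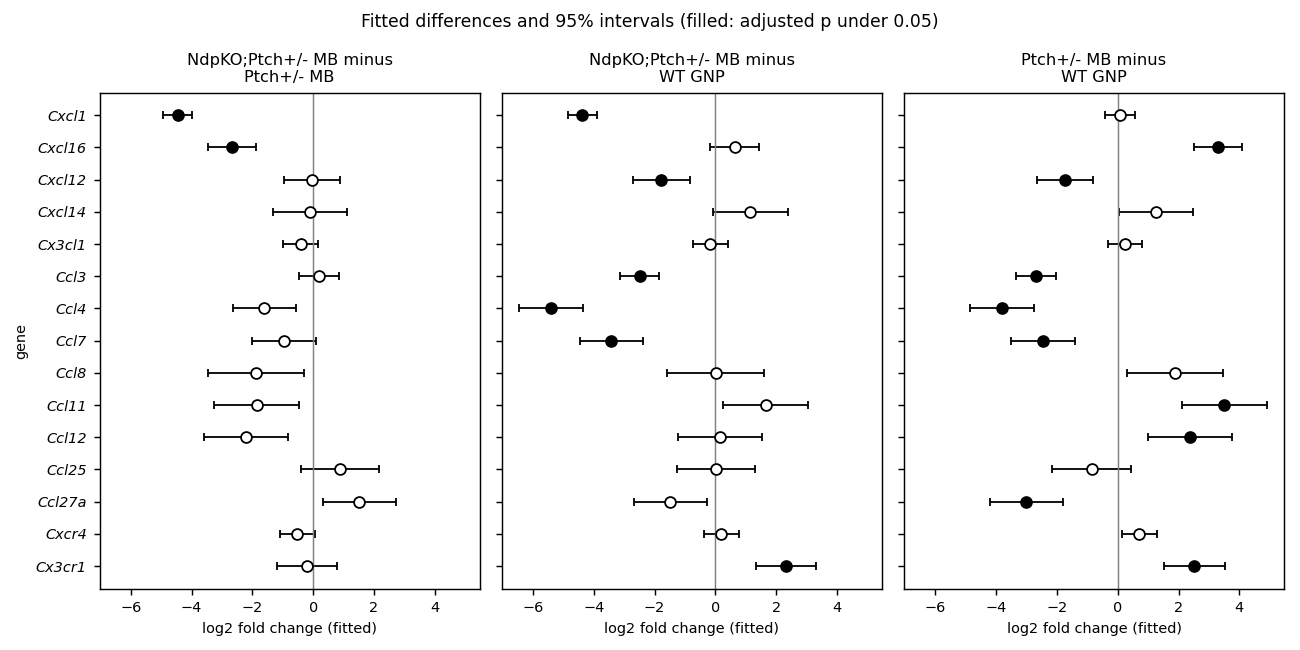
Fitted log2 fold change (x axis) with its 95% interval for the 15 genes at or above the limit on at least 2 arrays (y axis), for NdpKO;Ptch+/- MBs minus Ptch+/- MBs, NdpKO;Ptch+/- MBs minus WT GNPs and Ptch+/- MBs minus WT GNPs; filled points have an adjusted p under 0.05 in limma. Cxcl1 and Cxcl16 are the filled points of the comparison between tumor genotypes, at -4.46 and -2.68.

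Lists of related genes were examined in the same fit. The naming rule leaves out platelet chemokines, atypical receptors and chemokine-like proteins, of which 12 were measured. Of these, 0 were called between the tumor genotypes, and 7 were under the limit on all arrays. Against WT GNPs, 1 was called lower in NdpKO;Ptch+/- MBs, and 1 higher and 2 lower in Ptch+/- MBs. The lower calls include Ccrl2 in both genotypes, although it was under the limit on all arrays. Mif, a cytokine that binds Cxcr4 among other receptors, was 14.90 ± 0.08 (SD, n = 4) in NdpKO;Ptch+/- MBs and 14.72 ± 0.18 in Ptch+/- MBs. Rarres2, the precursor of the attractant chemerin, was 7.18 ± 0.21 in NdpKO;Ptch+/- MBs and 7.89 ± 0.26 in Ptch+/- MBs, with an adjusted p of 0.0826 in limma. Pf4, a platelet chemokine, was 4.37, 6.10, 4.93 and 5.85 in NdpKO;Ptch+/- MBs and under the limit in all Ptch+/- MBs (adjusted p = 0.413).

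Of 48 measured genes of chemokine signal transduction and handling, 2 were called higher and 0 lower in NdpKO;Ptch+/- MBs than in Ptch+/- MBs. Gnb4, a beta subunit of heterotrimeric G proteins, was 9.16 ± 0.17 (SD, n = 4) in NdpKO;Ptch+/- MBs and 8.23 ± 0.17 in Ptch+/- MBs (log2 fold change 0.93, adjusted p = 0.00440 in limma). Rgs4, which shortens G protein signals, was 8.62, 8.48, 7.42 and 8.64 in NdpKO;Ptch+/- MBs, against 5.77, 4.40, 4.71 and 4.49 in Ptch+/- MBs (log2 fold change 3.45, adjusted p = 0.0321). The genotypes did not overlap in either gene. Vav1, a signalling protein of blood cells, was 5.66, 4.56, 4.43 and 5.41 in NdpKO;Ptch+/- MBs, against 5.33, 7.25, 7.05 and 7.68 in Ptch+/- MBs, which overlapped (log2 fold change -1.82, adjusted p = 0.117). The median log2 fold change of these 48 genes was -0.0066.

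Of 23 measured cytokines and factors known to induce chemokines, 1 (Cebpb) was called between the tumor genotypes, and it was lower in NdpKO;Ptch+/- MBs. Against WT GNPs, 0 were called higher and 8 lower in NdpKO;Ptch+/- MBs, and 1 higher and 7 lower in Ptch+/- MBs. Of all genes, 7.69% were called higher and 7.98% lower in NdpKO;Ptch+/- MBs, and 10.3% and 10.9% in Ptch+/- MBs. The lower ones include Tnfaip3 in both genotypes and Relb in NdpKO;Ptch+/- MBs, each under the limit on all 12 arrays. Cebpb, a transcription factor of inflammatory genes, was 6.14, 4.52, 5.94 and 5.33 in NdpKO;Ptch+/- MBs, against 8.19, 7.76, 8.14 and 9.09 in Ptch+/- MBs and 8.56 to 8.67 in WT GNPs. Like Cxcl1, it was lower in all 4 NdpKO;Ptch+/- MBs than in every other sample, with a log2 fold change from Ptch+/- MBs of -2.81 (standard error 0.36, adjusted p = 0.00828 in limma) and from WT GNPs of -3.12 (adjusted p = 0.000495). Rela, the NF-kappaB subunit, was 10.43 ± 0.27 in NdpKO;Ptch+/- MBs and 10.60 ± 0.15 in Ptch+/- MBs (adjusted p = 0.690). Nfkbia, an inhibitor and target of NF-kappaB, differed by -0.43 between the tumor genotypes (adjusted p = 0.248), and the interferon factor Irf1 by -0.49 (adjusted p = 0.0994). Both were called lower than in WT GNPs in each tumor genotype. For Nfkbia the log2 fold change was -1.17 in NdpKO;Ptch+/- MBs and -0.74 in Ptch+/- MBs, and for Irf1 it was -1.16 and -0.67. The cytokines Tnf, Il6, Ifng and Ifnb1 were under the limit on all arrays. Il1b, an inflammatory cytokine of myeloid cells, was 4.11 to 4.13 in NdpKO;Ptch+/- MBs and reached the limit in Ptch+/- MB replicate 4, at 4.97, and in WT GNP replicates 3 and 4, at 6.01 and 5.70. Il1a reached it in the same 2 WT GNP samples, at 4.92 and 4.57. Fos was 4.54 ± 0.39 in NdpKO;Ptch+/- MBs and 5.95 ± 0.93 in Ptch+/- MBs, against 13.05 ± 0.30 in WT GNPs, where Ccl3, Ccl4 and Ccl7 were also highest. The part of these factors in the chemokine differences was not tested.

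**Figure D5:**
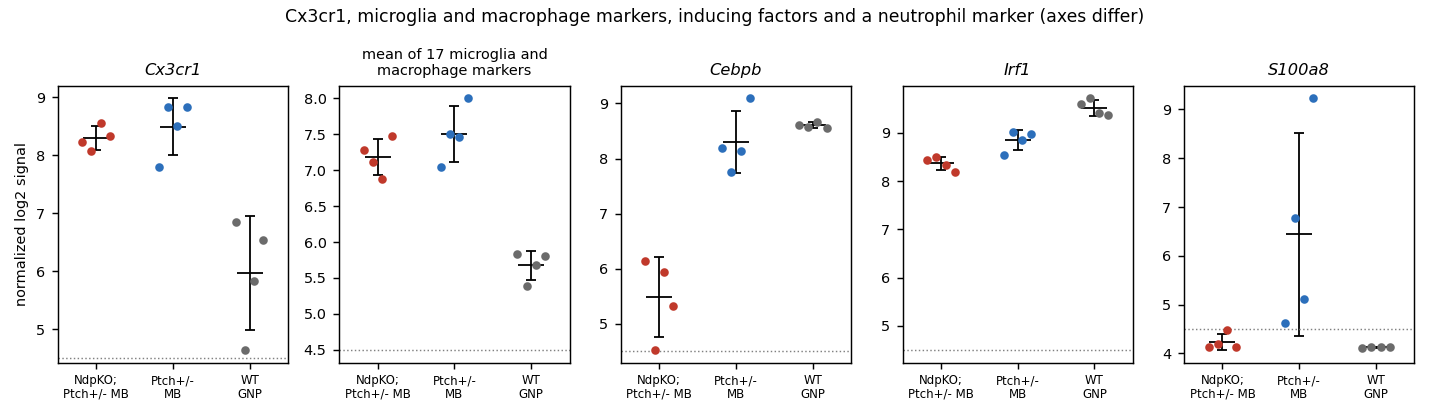
Normalized log2 signal (y axes, which differ in range) of Cx3cr1, of the mean of 17 microglia and macrophage markers, and of Cebpb, Irf1 and the neutrophil marker S100a8, in NdpKO;Ptch+/- MBs, Ptch+/- MBs and WT GNPs (x axis); points are arrays, bars the mean ± SD (n = 4) and the dotted line the limit of 4.5. Cx3cr1 and the markers are higher in the tumors of both genotypes than in WT GNPs, and Cebpb is lower in NdpKO;Ptch+/- MBs, at 4.52 to 6.14.

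Neutrophils are the cells that Cxcl1 attracts, and 7 of their and mast cells' 10 measured markers, Mpo, Elane and Ltf among them, were under the limit on all arrays. S100a8, a calcium-binding protein of neutrophils and activated macrophages, was 4.13, 4.20, 4.48 and 4.14 in NdpKO;Ptch+/- MBs, against 4.63, 6.78, 5.12 and 9.23 in Ptch+/- MBs (adjusted p = 0.277 in limma). It was at 4.12 to 4.14 in WT GNPs, where Cxcl1 was as bright as in Ptch+/- MBs. The part of neutrophils in the values of Cxcl1 was not tested. Summed over the 10 markers, the log2 signal ranged over 9.40 to 9.64 in NdpKO;Ptch+/- MBs, 9.02 to 10.2 in Ptch+/- MBs and 10.7 to 10.9 in WT GNPs. Kit, a mast cell marker that other cells also express, was the brightest of them in WT GNPs, at 10.72 ± 0.15 (SD, n = 4), while S100a8, S100a9 and Mpo were on the floor there.

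Markers of other cell types, some of which release chemokines, were also compared. Of 12 endothelial markers, 3 (Emcn, Ramp2 and Robo4) were called higher and 0 lower in NdpKO;Ptch+/- MBs than in Ptch+/- MBs, with a median log2 fold change of 0.70. In the same comparison, 1 of 9 mural cell markers (Vtn) was higher. Of 12 markers of fibroblasts and meninges, cells that are sources of Cxcl12 and Ccl11, 0 were called in it, with a median of -0.08. The log2 of the summed signal of the fibroblast and meningeal markers ranged over 11.9 to 12.6 in NdpKO;Ptch+/- MBs, 12.9 to 13.1 in Ptch+/- MBs and 12.3 to 12.5 in WT GNPs. Between the tumor genotypes, 0 of 4 red blood cell markers were called, but their median log2 fold change was 2.79. Their list means were 8.69 to 10.7 in NdpKO;Ptch+/- MBs, 5.62 to 9.05 in Ptch+/- MBs and 9.49 to 10.95 in WT GNPs. The part of these cells in the chemokine values was not tested.

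The tumors of a genotype also differed among themselves. Of the 15 genes at the limit on at least 2 arrays, 9 had the highest value of their genotype in Ptch+/- MB replicate 4 (Ccl3, Ccl4, Ccl7, Ccl8, Ccl11, Cx3cl1, Cxcl14, Cxcl16 and Cxcr4), and 8 had the lowest in Ptch+/- MB replicate 1. Replicate 4 also had the highest S100a8 signal and the highest mean of the microglia and macrophage markers among Ptch+/- MBs (7.997, against 7.04 to 7.51 in the other 3). In NdpKO;Ptch+/- MBs no array stood out in this way, each holding the highest value of 3 or 4 genes. Without Ptch+/- MB replicate 4 the number of genes called between the tumor genotypes remained 2.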

How the data were processed

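RNA of 12 samples was measured on 12 single-color Illumina arrays. The authors deposited normalized log2 signals, which they derived from BeadStudio output with limma's neqc (version not given in the sources used here), which corrects background with negative controls and quantile-normalizes. Depth has no counterpart here, and the 4 arrays per group limit precision. Probes were named from the platform annotation (34885 with 1 symbol, 18 with several, 10378 with none). Groups were compared in R 4.3.3 with limma 3.58.1 (lmFit, eBayes) in 1 group-means model over 12 arrays, without covariates, adjusting by Benjamini-Hochberg over all 45281 probes at 0.05. The limit of 4.5 gave the bounds ("at least"): the mean of the brighter group over the limit, where the dimmer group was under it on all arrays. Other folds are fitted values. Permutation tests were exact over 35 splits of the tumors.

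The genes given with values reached the limit on at least 2 arrays or passed the test. Members, lists and rules were chosen with earlier results of these data known. Of the other lists, astrocyte, oligodendrocyte and choroid plexus markers (10, 7 and 5 measured) had 0 calls between the tumor genotypes, and of 13 GNP and MB markers 1, Ccnd2, was lower. Promoters and gene order came from RefSeq (GRCm38.p6), which had promoters for 40 of the 54 genes. The model was tested on simulated data. Alternatives were array weights, a prior that was robust and followed intensity, a filter on dim probes, centring on array medians, quantile normalization repeated, fitting 2 groups alone, the replicate number as a block, the mean of a gene's probes, a threshold of 0.01, limits of 4.3 and 5, and leaving out each array. The methods' filter on poorly matching probes was not applied, and slide or scan date was not used here.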

Additional observations from a re-analysis of the deposited data

Results flagged for a closer look

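In 4 of the 37 groups of 4 arrays examined for the named genes, 1 array lay far from its group. A group was examined only if at least 1 of its arrays reached the limit. No chance rate can be set against this count, since the Ccl12 and Cx3cl1 groups below entered only through the array that was flagged. Ccl12 was 4.79 in NdpKO;Ptch+/- MB replicate 2, against 4.20 to 4.25 in the other 3 tumors of that genotype. In WT GNPs, Ccl3 was 6.78 in replicate 4, against 7.43 to 7.52 in the others. Cx3cl1 was 4.81 in WT GNP replicate 2, against 4.24 to 4.25. Cxcl1 was 8.26 in the same WT GNP replicate 2, against 8.86 to 8.93. That array also held the lowest value of 9 of the 15 genes within its group.

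The difference between tumor and WT GNPs was not the same in NdpKO;Ptch+/- and Ptch+/- MBs for Cxcl1 and Cxcl16. The test between the tumor genotypes shows this, since both differences use the same WT GNP arrays. By the records, Ndp genotype and strain cannot be told apart in these tumors. NdpKO;Ptch+/- mice were males, whereas controls included both sexes by the methods. The part of Ndp was therefore not tested. The tumor-minus-GNP difference of Cxcl1 was lower by -4.46 on the log2 scale in NdpKO;Ptch+/- than in Ptch+/- MBs (adjusted p = 4.69e-05 in limma), and that of Cxcl16 by -2.68 (adjusted p = 0.00931).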

How the results depend on the processing

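No log2 fold change of a named gene that was called in any comparison reversed under any alternative run. Cxcl1 was called between the tumor genotypes under all 20 settings (adjusted p 9.28e-08 to 0.00509 in limma) and Cxcl16 under 18 of 20 (0.000665 to 0.101). Of the 54 genes, 2 were called between the tumor genotypes, 4 when dim probes were left out (Ccl12 and Ccl4 added), 1 with only the tumors fitted and 1 with the replicate number as a block (Cxcl1 in both). Leaving out 1 array at a time gave 2 to 4, with 4 without Ptch+/- MB replicate 3 (Ccl12 and Ccl5 added). Same-numbered arrays did not deviate together (r -0.18 to 0.11), but this cannot show whether they shared a slide or batch. Over all settings 6 to 12 genes were called in NdpKO;Ptch+/- MBs against WT GNPs and 8 to 13 in Ptch+/- MBs against WT GNPs. Between the tumor genotypes 624 of all probes were called, 64 with the tumors alone, 223 with the block, 1225 of the fewer probes tested without dim ones and 1051 with an intensity trend and robust prior. Averaging a gene's probes gave -1.36 for Cxcl16 (adjusted p = 0.00557), -0.81 for Ccl4 and -0.95 for Ccl11 between the tumor genotypes, since their other probes were dim. The other causes were not tested. A fit with slide or scan date was not run. With dim probes left out, Ccl11 (adjusted p = 0.0423) and Ccl27a (0.0359) passed in NdpKO;Ptch+/- MBs against WT GNPs, and Cxcr4 (0.0329) in Ptch+/- MBs against WT GNPs. For 36 of the 54 genes no array rose above background.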
